A study of Adonis amurensis with 6 samples.

Results

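The light-harvesting chlorophyll-binding (LHC) proteins of Adonis amurensis were followed through the flowering of this early spring perennial. The members are the unigenes (assembled transcript sequences) whose closest Swiss-Prot protein carries the words "Chlorophyll a-b binding" in its name, which gave 80 of the 190353 unigenes with readable values. Of these, 22 matched proteins of the antenna of photosystem I (LHCI) and 58 matched proteins of the antenna of photosystem II (LHCII). A KEGG orthology name of an LHC protein was attached to 78 of the 80 members and to only 1 unigene outside them. The Swiss-Prot match had an e-value of at most 1e-50 in 51 members and a weaker one in 29, and it was at most 1e-50 in each of the 20 members that reached an FPKM of 50 after bud differentiation. FPKM counts sequenced fragments relative to the length of the transcript and to the mapped fragments of the library, so levels of different unigenes can be set side by side.

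Floral organs of open-field plants were sequenced at 6 stages: FBD, the differentiation of the flower bud; YA, the young alabastrum or closed bud; VCA, the alabastrum with visible color; EFS, early flowering; FBS, full bloom; and SFS, the senescing flower. The labels call the tissue of FBD, YA and VCA flower bud and that of EFS, FBS and SFS flower. Each stage has 1 library, so no test and no error can be given, and the spread between plants of 1 stage is unknown. How many plants or which organs went into a library is not given in the sources used here.

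LHC proteins sit in the thylakoid membrane of the chloroplast, hold chlorophyll a, chlorophyll b and carotenoids, and pass the absorbed light energy to the reaction centers. LHCB1, LHCB2 and LHCB3 make up the trimers of LHCII, the minor antenna proteins CP29 (LHCB4), CP26 (LHCB5) and CP24 (LHCB6) link these trimers to the photosystem II core, and LHCA1 to LHCA4 form a belt on photosystem I. All are encoded in the nucleus and carried into the chloroplast as precursors, and their genes are classical light-induced genes of green leaves and other green organs such as young sepals.

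The deposited FPKM of all unigenes summed to between 724656 and 755345 per library, and the depth estimated from the low values lay between 0.804 and 1.15 times that of YA. This estimate was sought only within a set range, from unigenes at low values in both libraries. Few unigenes had similar levels in FBD and in the later libraries, so the value of FBD, 0.804, is the least certain. Unigenes with names of floral homeotic, SEPALLATA and AGAMOUS-like proteins, 75 in all, summed to between 871 and 1563 FPKM in the later libraries and to 509 FPKM in FBD. Unigenes with such names were thus found in every library. The list goes by name alone, and the tissue behind a library was not tested by it. The FBD library stood apart for the LHC proteins too, as described further on, and the comparisons between stages below therefore begin with YA.

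From YA to SFS, the summed LHC transcripts were lowest in full bloom, where they were over 2-fold below early flowering and over 3-fold below the senescing flower. The 80 members summed to 6047 FPKM in YA, 9036 in VCA and 6357 in EFS, before 2997 in FBS and 10753 in SFS. As a share of all FPKM of a library these sums were 0.813% in YA, 1.196% in VCA and 0.868% in EFS, then 0.413% in FBS and 1.48% in SFS. On the log2 scale of the summed FPKM, VCA differed from YA by 0.58 and EFS from VCA by −0.51, both less than the 2-fold (log2 ratio of 1) used here as the limit for a change. The sum fell by 1.08 in FBS relative to EFS, a 2.12-fold lower level, and it rose by 1.84 in SFS relative to FBS, a 3.59-fold higher level. SFS differed from VCA by 0.25, which became 1.22 and so passed 2-fold with each library scaled to its summed actin FPKM. In whole floral organs, fewer green cells and less LHC RNA per green cell cannot be told apart.

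The 2-fold call for the sum in the step into full bloom depended on the choices made, while that for SFS over FBS held under every alternative run. Without CL5355.Contig9, the highest member, the sum of the other 79 was 2138 FPKM in FBS against 4021 in EFS, a log2 ratio of −0.91. With each library scaled to its summed actin FPKM, the ratio of FBS to EFS was −0.54, also under 2-fold. Actin itself summed to 963 FPKM in FBS and 1403 in EFS, and its part in the result was not tested.

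**Figure D1:**
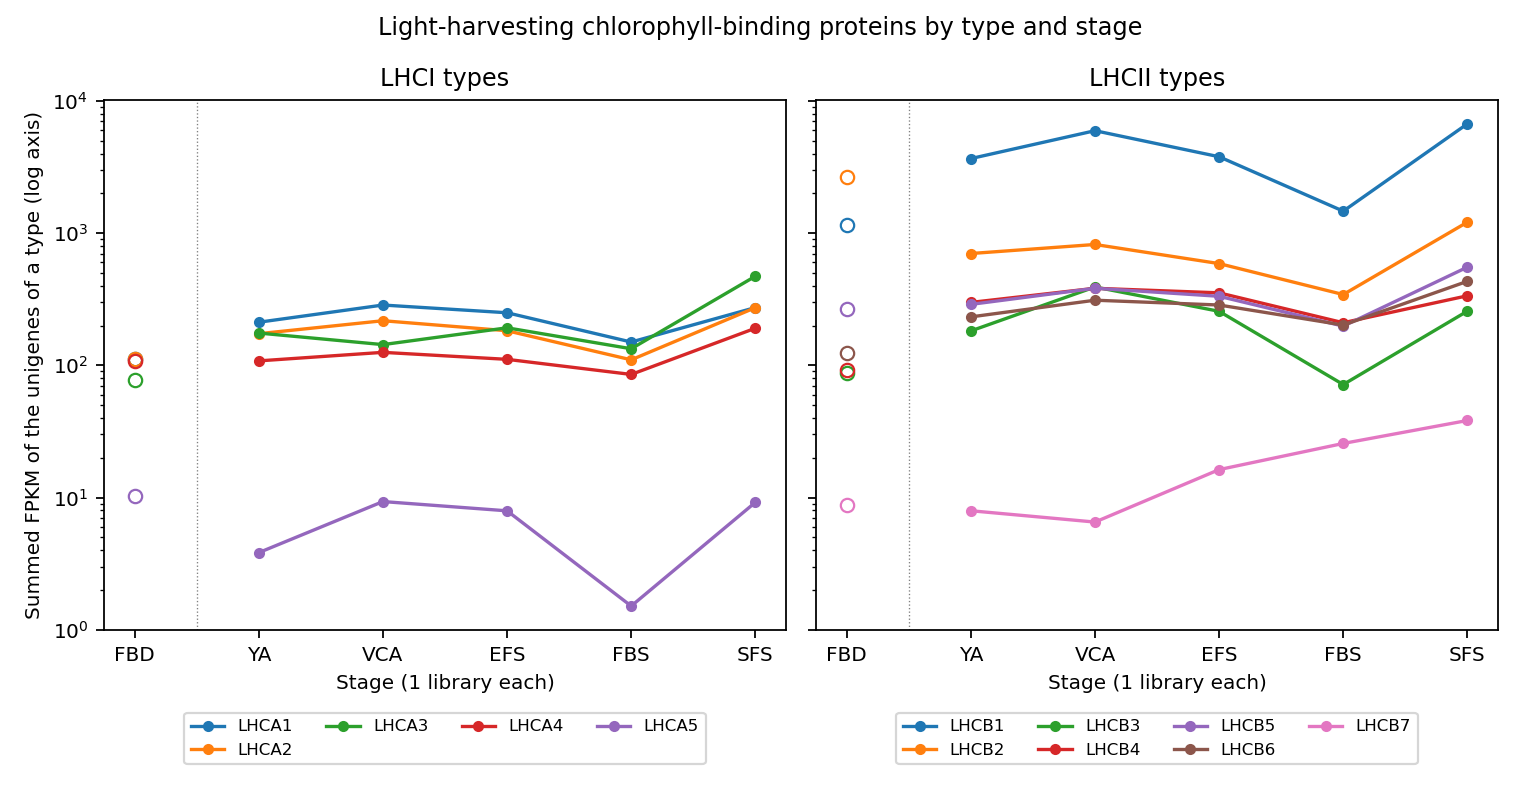
Summed FPKM (log axis) of the unigenes of each LHCI type (left) and LHCII type (right) at each stage, with 1 library per point and FBD drawn apart as open circles. LHCB1 lies on top in YA to SFS, nearly all lines dip at FBS, and LHCB7 climbs after VCA to 38.3 FPKM in SFS.

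The sum of the photosystem II antenna, most of it LHCB1, moved more than that of the photosystem I antenna, while single types overlapped. LHCII summed to 5374 FPKM in YA, 8255 in VCA and 5614 in EFS, before 2517 in FBS and 9536 in SFS, and its log2 ratio was −1.16 for FBS over EFS and 1.92 for SFS over FBS. LHCI summed to 672 FPKM in YA, 781 in VCA and 743 in EFS, then 480.2 in FBS and 1218 in SFS, with log2 ratios of −0.63 and 1.34 for the same steps. The ratio of summed LHCII to summed LHCI was 7.99 in YA, 10.6 in VCA and 7.55 in EFS, before 5.24 in FBS and 7.83 in SFS. The photosystem I antenna thus took its highest share of the family in full bloom, 16.0%, against 8.65% to 11.7% in the other 4 libraries from YA on.

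Within LHCII, the sum of the trimer proteins, most of it LHCB1, moved more than that of the minor antenna proteins. LHCB1, LHCB2 and LHCB3 together summed to 4545 FPKM in YA, 7165 in VCA and 4625 in EFS, then 1880.3 in FBS and 8174 in SFS. The minor antenna proteins LHCB4, LHCB5 and LHCB6 summed to 820.4 FPKM in YA, 1076 in VCA and 972 in EFS, before 609 in FBS and 1320.5 in SFS. The ratio of the trimer sum to the minor antenna sum was 5.54 in YA, 6.66 in VCA and 4.76 in EFS, then 3.09 in FBS and 6.19 in SFS, lowest of these 5 in full bloom. The trimer proteins did not move as a class into full bloom. LHCB2 was 1.71-fold lower in FBS than in EFS, near the 1.68-fold of LHCB4 and LHCB5, with LHCB6 at 1.42-fold. For SFS over FBS, LHCB2 was 3.53-fold higher, against 1.60-fold to 2.79-fold for the minor antenna proteins.

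**Figure D2:**
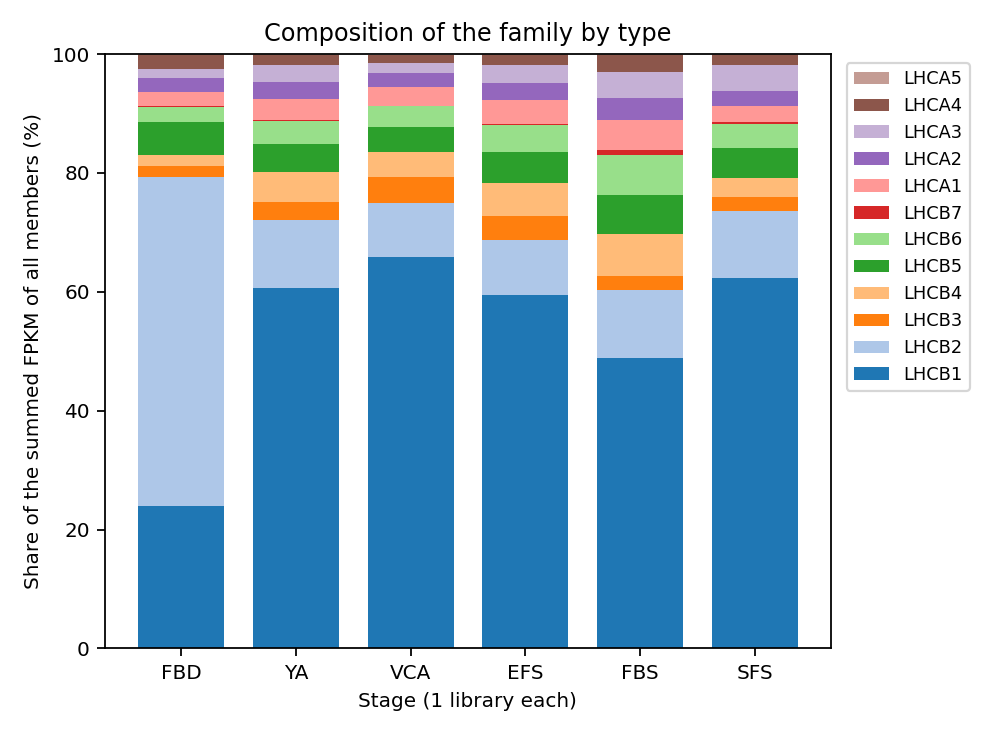
Share of each type in the summed FPKM of the family (percent, stacked bars) for the 6 libraries. LHCB1 makes up 48.9% in FBS and 59.5% to 65.9% in the other stages from YA on, while LHCB2 makes up 55.3% in FBD.

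LHCB1, the main protein of the LHCII trimer, was the most abundant type from YA on, with 3663 FPKM in YA, 5953 in VCA and 3781 in EFS, before 1466 in FBS and 6707 in SFS. It was 2.58-fold lower in FBS than in EFS and 4.58-fold higher in SFS than in FBS. Its 25 unigenes include the contigs of cluster CL5355, of which all 10 are members and which held 47.3% of the family's FPKM in FBS and 55.6% to 62.2% in the other 4 stages from YA on. Contigs of 1 CL number are similar sequences that share reads, and these reads were divided among them by estimation, so the value of a single contig is less certain than their sum.

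CL5355.Contig9 alone reached 2479 FPKM in YA, 3956 in VCA and 2336 in EFS, then 859 in FBS and 4665 in SFS. This placed it at rank 4 of all unigenes in YA, rank 1 in VCA, rank 6 in EFS, rank 50 in FBS and rank 4 in SFS. It was 2.72-fold lower in FBS than in EFS and 5.43-fold higher in SFS than in FBS. CL5355.Contig3, the next contig of this cluster, had 624 FPKM in YA, 1115 in VCA and 689 in EFS, before 220.3 in FBS and 1138 in SFS, also lowest in FBS and highest in SFS of these stages.

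Other LHCB1 unigenes kept a different course. CL5355.Contig6 had 83.9 FPKM in YA and then stayed between 117 and 123.8 from VCA to SFS, with 117 in FBS against 122.8 in EFS. CL5355.Contig2 had 42.5 FPKM in YA, 67.0 in VCA and 51.5 in EFS, then 84.2 in FBS and 23.5 in SFS, so it was highest where the family was lowest. CL5355.Contig4 had 22.2 FPKM in YA, 17.5 in VCA and 89.8 in EFS, before 6.96 in FBS and 105 in SFS, and its 14.9-fold higher level in SFS than in FBS was the widest step of the 20 members that reached an FPKM of 50. Because these 3 contigs share their cluster with CL5355.Contig9, the division of reads among them can shift single values.

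Some LHCB1 unigenes belonged mainly to the colored bud and early flower. Unigene5043 had 26.0 FPKM in YA, 98.3 in VCA and 87.7 in EFS, then 7.08 in FBS and 27.5 in SFS, 3.77-fold higher in VCA than in YA. A pair of weaker LHCB1 unigenes, picked after their values were seen, showed the same order of VCA, EFS and YA. Unigene17726 had 2.46 FPKM in YA, 36.3 in VCA and 15.6 in EFS, was listed at 0 in FBS and had 2.88 in SFS, and CL5355.Contig1 had 5.21 in YA, 43.2 in VCA and 21.3 in EFS, before 0.99 in FBS and 4.98 in SFS. Unlike CL5355.Contig9, these 3 unigenes were lower in SFS than in VCA.

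**Figure D3:**
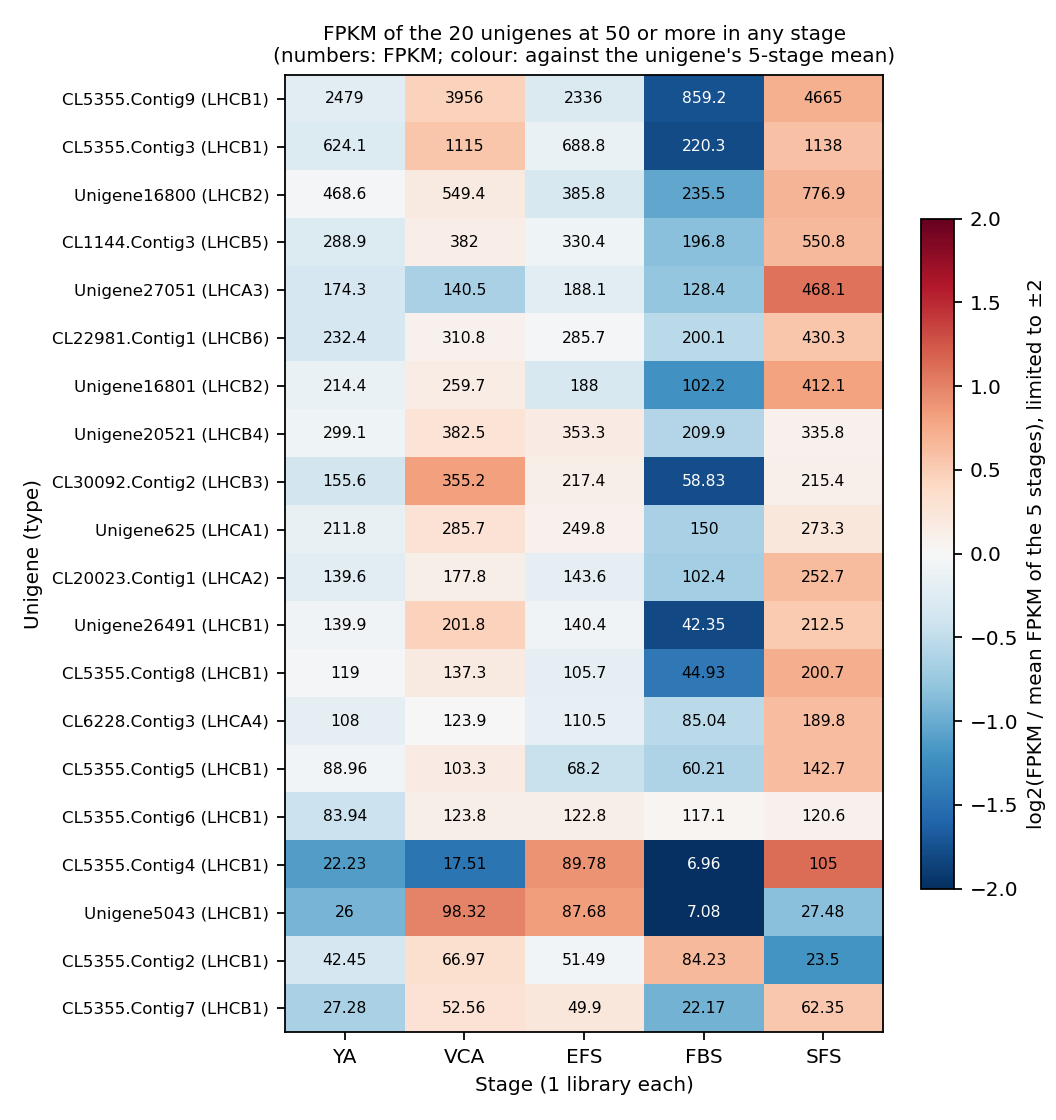
FPKM (printed in the cells) of the 20 members that reached 50 FPKM in YA, VCA, EFS, FBS or SFS, 1 row per unigene and 1 library per column, colored by the log2 of the FPKM over the unigene's own mean of these stages, limited to ±2. FBS is the lowest stage in 18 of the 20 rows, the exceptions being CL5355.Contig6 and CL5355.Contig2.

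LHCB2, whose phosphorylation moves LHCII between the photosystems, summed to 701 FPKM in YA, 820.4 in VCA and 588 in EFS, then 343 in FBS and 1210.2 in SFS. Its leading unigene, Unigene16800, had 469 FPKM in YA, 549 in VCA and 386 in EFS, before 236 in FBS and 777 in SFS. Unigene16801, also LHCB2, had 214 FPKM in YA, 259.7 in VCA and 188 in EFS, then 102 in FBS and 412 in SFS. Both were less than 2-fold lower in FBS than in EFS and over 2-fold higher in SFS than in FBS, by 3.30-fold and 4.03-fold.

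LHCB3, the third trimer protein, had the widest drop of the LHCII types into full bloom and was, besides the weak LHCA5, the only type whose sum passed 2-fold between YA and VCA. CL30092.Contig2, its leading unigene, had 156 FPKM in YA, 355 in VCA and 217 in EFS, before 58.8 in FBS and 215 in SFS. It was 2.28-fold higher in VCA than in YA, 3.69-fold lower in FBS than in EFS, and 3.66-fold higher in SFS than in FBS. Summed LHCB3 was 257 FPKM in SFS against 391 in VCA, and summed LHCB4 was 336 against 383, while the LHCB1, LHCB2, LHCB5 and LHCB6 sums were higher in SFS than in VCA. None of these 6 differences reached 2-fold.

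The minor antenna proteins varied less. Unigene20521 (LHCB4, CP29) had 299 FPKM in YA, 383 in VCA and 353 in EFS, then 209.9 in FBS and 336 in SFS, and no step between consecutive stages reached 2-fold. CL1144.Contig3 (LHCB5, CP26) had 289 FPKM in YA, 382 in VCA and 330.4 in EFS, before 197 in FBS and 551 in SFS, 2.80-fold higher in SFS than in FBS. CL22981.Contig1 (LHCB6, CP24) had 232 FPKM in YA, 311 in VCA and 286 in EFS, then 200.1 in FBS and 430.3 in SFS, 2.15-fold higher in SFS than in FBS. CP26 and CP24 thus passed 2-fold only in the step to the senescing flower, where CP29 had a ratio of 1.60.

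LHCB7, a weakly expressed relative of the photosystem II antenna proteins described in Arabidopsis, followed an order of its own. It summed to 7.94 FPKM in YA, 6.52 in VCA and 16.3 in EFS, before 25.6 in FBS and 38.3 in SFS, and was the only one of the 12 types with a higher sum at every step after VCA. Its level was 5.79-fold higher in SFS than in VCA. The leading contig, CL18519.Contig2, had 4.23 FPKM in YA, 3.77 in VCA and 8.43 in EFS, then 12.1 in FBS and 20.3 in SFS, and CL18519.Contig1 of the same cluster, named after its values were seen, had 3.71, 2.75, 7.83, 13.5 and 18.0 in the same order of stages.

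In the photosystem I antenna, LHCA3 parted from the other types in the senescing flower. Unigene27051 (LHCA3) had 174 FPKM in YA, 140.5 in VCA and 188 in EFS, before 128 in FBS and 468 in SFS. Among the 19 members with an FPKM of at least 50 in VCA or YA, it was the only one with a lower value in VCA, at a ratio of 0.806. Of all unigenes at this level, 45.2% were lower in VCA. Unigene27051 was 3.64-fold higher in SFS than in FBS. Summed LHCA3 was 3.29-fold higher in SFS than in VCA.

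The other belt proteins spanned narrower ranges. Unigene625 (LHCA1) had 212 FPKM in YA, 286 in VCA and 249.8 in EFS, then 149.98 in FBS and 273 in SFS, without a 2-fold step. CL20023.Contig1 (LHCA2) had 139.6 FPKM in YA, 178 in VCA and 144 in EFS, before 102 in FBS and 253 in SFS, 2.47-fold higher in SFS than in FBS. CL6228.Contig3 (LHCA4) had 108 FPKM in YA, 124 in VCA and 111 in EFS, then 85.0 in FBS and 189.8 in SFS, 2.23-fold higher in SFS than in FBS.

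LHCA5, a minor protein of photosystem I, was present at low levels. Unigene27269, its only unigene at an FPKM of 1 or more from YA on, had 3.83 FPKM in YA, 9.32 in VCA and 7.93 in EFS, before 1.51 in FBS and 9.19 in SFS, which made FBS 4.99-fold lower than EFS. Weaker unigenes of LHCA2 also dropped further than their leading unigene. CL20074.Contig1, picked after its values were seen, had 17.0 FPKM in YA, 21.8 in VCA and 18.5 in EFS, then 3.39 in FBS and 8.91 in SFS.

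Counts over single members, which include contigs that share reads, went in the same direction as the sums for the last 2 steps. At least 1 FPKM in either library of a pair was needed for a unigene to be counted, a condition that a member can meet through its higher library alone. For VCA over YA, 36 members were counted and 44 were below this level. Of the 36, 8 were 2-fold or more higher and 1 was lower, against 30.0% higher and 31.8% lower of all unigenes counted. For EFS over VCA, 7 of 39 members were higher and 4 lower, against 28.0% and 38.3% of all unigenes. Scaling by the libraries' median ratio gave 7 higher and 2 lower of 39, against 31.3% and 33.6% of all unigenes so scaled. Scaling to actin gave 5 higher and 5 lower of 37, against 24.0% and 41.7%. In both of these steps, fewer members than the background passed 2-fold.

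For FBS over EFS, 2 of 40 members were 2-fold or more higher and 19 lower, against 33.0% and 32.5% of all unigenes counted. Scaling to actin gave 6 higher and 15 lower of 38, against 44.8% and 23.1% of all unigenes so scaled. Summing the contigs of each cluster gave 1 higher and 11 lower, out of a total that was not recorded, so no share can be set beside the background. For SFS over FBS, 26 of 37 members were higher and 2 lower, against 29.1% and 35.8% of all unigenes. With contigs summed 18 were higher and 1 lower, again out of a total not recorded. The median log2 ratio of the members was −0.81 for FBS over EFS and 1.48 for SFS over FBS, where all unigenes counted had medians of 0.02 and −0.22.

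Among abundant members, which are less affected by low read numbers, 18 of 19 had a lower value in FBS than in EFS, against 51.0% of all equally abundant unigenes. Those past 2-fold were LHCB1 and LHCB3 unigenes. Of the 19 members with an FPKM of at least 50 in FBS or EFS, 7 were 2-fold or more lower in FBS and 0 higher, against 23.3% lower and 21.8% higher of all unigenes at this level. These 7 were 6 of the 9 LHCB1 unigenes and the 1 LHCB3 unigene, and the other 8 types represented at this level had no call. Of the 6 LHCB1 unigenes, 4 are contigs of cluster CL5355 and so share reads, and the difference between types was not tested. For SFS over FBS, 15 of 19 members were higher and 1 lower, against 20.9% and 20.3%. The 15 came from 8 types, and the 3 members under 2-fold were CL5355.Contig6, Unigene20521 (CP29) and Unigene625 (LHCA1). The 1 lower member was CL5355.Contig2.

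For the earlier steps at this level, 2 of 19 members were 2-fold or more higher in VCA than in YA and 0 lower, against 13.3% and 12.2% of all unigenes. Those 2 were Unigene5043 and CL30092.Contig2. Of 20 members, 1 was higher in EFS than in VCA, CL5355.Contig4 with a ratio of 5.10, and 0 were lower, against 21.7% and 23.4%.

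The order of stages was shared by most abundant members. FBS was the lowest of the 5 stages in 18 of the 20 members that reached an FPKM of 50, against 18.6% of all such unigenes. SFS was the highest in 14 of the 20, against 23.9%, and VCA in 5, against 24.2%. FBS was below EFS in 19 of the 20 and SFS above FBS in 19 of the 20, with CL5355.Contig2 as the exception in both counts. Among the 41 members that reached 1 FPKM in any of the 5 stages, SFS was the highest in 21 (16.4% of all such unigenes), VCA in 12 (23.4%), and FBS was the lowest in 27 (12.1%).

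The remaining 39 members stayed below 1 FPKM in each of the 5 stages from YA on, and 25 of them were listed at 0 in all 5. One member, Unigene16797, singled out after its values were seen, was named a chlorophyll a-b binding protein by Swiss-Prot but a cytochrome P450 by its KEGG match, and had no type. It had 0.59 FPKM in YA, 7.39 in VCA and 0.80 in EFS, before 1.19 in FBS and 3.19 in SFS, too low to bear on the sums.

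In FBD the family was expressed at a similar total but mainly from other unigenes. The members summed to 4827 FPKM in FBD, which was 0.646% of all FPKM of that library. LHCII held 4409 FPKM of this and LHCI 418, a ratio of 10.5 that lies within the 5.24 to 10.6 of the later stages. LHCB2 held 55.3% of the family's FPKM and LHCB1 24.0%, whereas LHCB1 was above LHCB2 in each of the 5 later libraries. The ratio of LHCB1 to LHCB2 was 4.27 to 7.26 from YA on and 0.435 in FBD.

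Nearly all members differed 20-fold or more in level between FBD and the later stages, as did nearly all unigenes. Setting FBD against the mean of the 5 later libraries, 71 members reached an FPKM of 1 on either side. Of these, 33 had a mean of the 5 at least 20 times their FBD level, 37 had an FBD level at least 20 times their mean of the 5, and 1 lay in between. The 33 and 37 are 46.5% and 52.1% of the 71 members, and the same limits gave 46.4% and 52.1% of all unigenes, so the family divided as the whole assembly did. The 33 held 99.9% of the family's FPKM in the mean of the 5 later libraries, and the 37 held 99.4% of it in FBD. The member in between, named after its values were seen, was Unigene24525 (LHCB5), with 1.15 FPKM in FBD, 1.19 in EFS, 0.89 in FBS and 0 listed in YA, VCA and SFS.

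**Figure D4:**
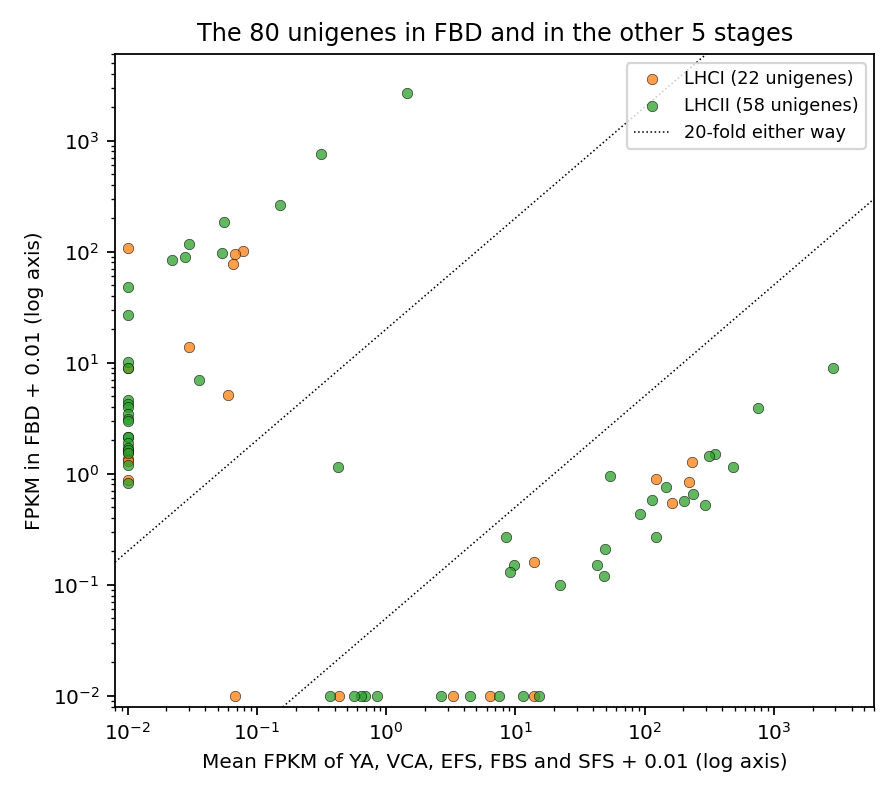
Each member by its mean FPKM in YA, VCA, EFS, FBS and SFS and its FPKM in FBD (log axes, 0.01 added), 1 point per unigene. The members form an arm along each axis, 33 toward the later stages and 37 toward FBD, with 1 between them.

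Each of the 12 types had unigenes on both sides. CL16803.Contig1 (LHCB2) had 2659 FPKM in FBD, where it ranked 2 of all unigenes, and then 2.06 in YA, 1.13 in VCA and 1.40 in EFS, then 1.18 in FBS and 1.48 in SFS. Unigene13897 (LHCB1) had 755 FPKM in FBD and 0.22 to 0.45 afterwards. The next levels in FBD were 263 FPKM for CL17589.Contig1 (LHCB5, CP26), 184 for CL6562.Contig2 (LHCB1) and 118 for CL28616.Contig2 (LHCB6, CP24). CL5355.Contig9, so prominent later, had 8.98 FPKM in FBD and ranked 13239.

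The traces on the other side were small in both directions, which the limit used to divide the members into sides already required. The ranges that follow therefore show only how far below that limit the traces of abundant members lay. In the 15 members of the later stages with a mean of at least 100 FPKM, the FBD level was 0.175% to 0.721% of that mean, with a median of 0.382%. In the 7 members of FBD with at least 100 FPKM, the mean of the 5 later libraries was 0% to 0.0678% of the FBD level, with a median of 0.0405%. The nearest nucleotide match was to Helleborus, a genus of the buttercup family to which Adonis belongs, in 7 of 31 matched members of the later stages and in 0 of 35 matched members of FBD. All 7 were among the 12 LHCB1 unigenes of the later stages, which include similar contigs of cluster CL5355 and so are not independent of each other. The same shares over all unigenes were not calculated, so the weight of this difference is unknown. Whether the FBD library came from the same plant material as the others was not tested, and no change in LHC expression between FBD and YA is read from these values.

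Relatives of the LHC proteins that protect rather than harvest differed in their course, and the early light-induced proteins were higher in full bloom. These proteins (ELIPs), which bind pigments under light stress and cold, summed to 973 FPKM in YA, 1919 in VCA and 1523 in EFS, before 5333 in FBS and 4195 in SFS. Their sum was 3.50-fold higher in FBS than in EFS, and 7 of the 8 ELIP unigenes counted were 2-fold or more higher and 1 lower, against 33.0% and 32.5% of all unigenes counted. The leading unigene, CL29174.Contig4, had 527 FPKM in YA, 1050.2 in VCA and 276 in EFS, then 1421 in FBS and 1403 in SFS. ELIPs thus exceeded the LHC sum in FBS, 5333 against 2997 FPKM, and in no other stage from YA on.

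Other relatives were at lower levels. CL22476.Contig1, a stress-enhanced protein of the same superfamily, had 6.45 FPKM in YA, 2.36 in VCA and 30.1 in EFS, before 136 in FBS and 134 in SFS. CL21447.Contig1, the PsbS protein that switches on the dissipation of excess light, had 121 FPKM in YA, 162 in VCA and 197 in EFS, then 179 in FBS and 208 in SFS, with no 2-fold step.

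**Figure D5:**
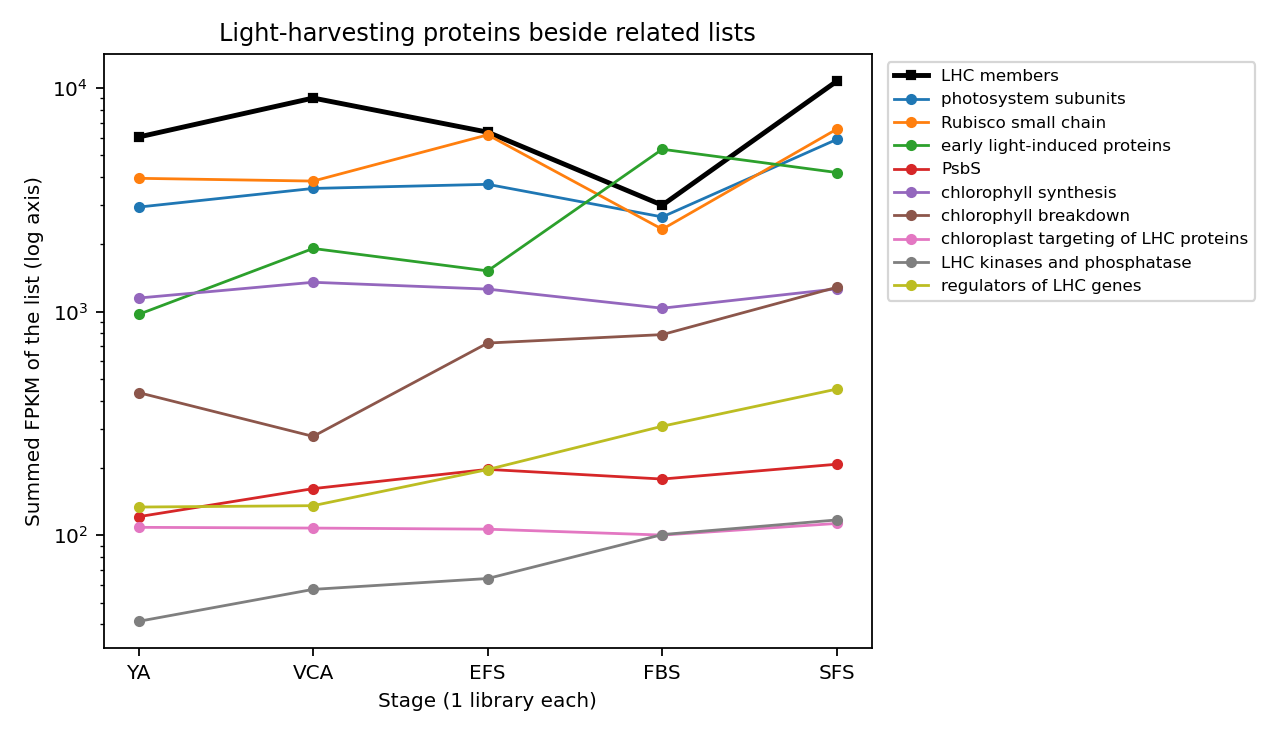
Summed FPKM of the LHC members and of related gene lists at each stage (log axis), with 1 library per point. The LHC sum and the Rubisco small chain dip at FBS, to 2997 and 2339 FPKM, while the ELIPs reach 5333 FPKM there.

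Of the photosynthesis genes outside the antenna, the Rubisco small chain was over 2-fold lower in full bloom than in early flowering and the photosystem subunits were not. The Rubisco small chain, part of the carbon-fixing enzyme, summed to 3953 FPKM in YA, 3842 in VCA and 6185 in EFS, before 2339 in FBS and 6561 in SFS. Of 16 small chain unigenes counted, 12 were 2-fold or more lower and 1 higher in FBS than in EFS, against 32.5% lower and 33.0% higher of all unigenes. In SFS relative to FBS, 11 were higher and 1 lower, against 29.1% and 35.8%. Its leading unigene, CL1613.Contig2, had 1123 FPKM in YA, 990.4 in VCA and 2127 in EFS, then 939 in FBS and 2324 in SFS. Photosystem subunits summed to 2939 FPKM in YA, 3562 in VCA and 3715 in EFS, before 2655 in FBS and 5903 in SFS. Of 25 subunit unigenes, 7 were lower in FBS than in EFS, under the 32.5% of all unigenes, and 3 were higher. Of 26, 13 were higher and 2 lower in SFS than in FBS, against 29.1% and 35.8% of all unigenes. The leading subunit unigene, Unigene23949 (photosystem II reaction center W protein), had 289 FPKM in YA, 326 in VCA and 392 in EFS, then 313 in FBS and 773 in SFS.

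The sums of the pigment pathways took other courses. Chlorophyll synthesis genes summed to 1152 FPKM in YA, 1355 in VCA and 1263 in EFS, before 1037 in FBS and 1266 in SFS. Of 47 counted, 17 were 2-fold or more lower in FBS than in EFS, a share near the 32.5% of all unigenes, and 9 were higher. Of 41, 10 were higher and 8 lower in SFS than in FBS, both below the 29.1% and 35.8% of all unigenes. CL7661.Contig1, a protochlorophyllide reductase that carries out the light-dependent step, had 69.8 FPKM in YA, 111 in VCA and 118 in EFS, then 122.5 in FBS and 121 in SFS.

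Chlorophyll breakdown genes summed to 435 FPKM in YA, 277 in VCA and 725 in EFS, before 790.3 in FBS and 1287 in SFS. The sum was 2.62-fold higher in EFS than in VCA, where 14 of 31 unigenes were higher and 1 lower, against 28.0% and 38.3% of all unigenes. A large part of this was 1 chlorophyllase-1 unigene, picked after its values were seen. It had 22.1 FPKM in VCA and 219 in EFS, then 61.9 in FBS and 52.7 in SFS. For FBS over EFS, 5 of 31 unigenes were higher and 7 lower, both below the 33.0% and 32.5% of all unigenes. In SFS, 9 of 34 were higher and 4 lower than in FBS, which is no more than the 29.1% and 35.8% of all unigenes. CL29336.Contig4, the chlorophyll b reductase NYC1 that starts the removal of chlorophyll b from LHCII, had 42.5 FPKM in YA, 33.5 in VCA and 106 in EFS, then 216 in FBS and 346 in SFS. The senescing flower therefore held both the highest LHC sum and the highest breakdown sum of the stages from YA on.

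The machinery that handles LHC proteins showed smaller steps. Genes for the chloroplast targeting of LHC proteins summed to 109 FPKM in YA, 108 in VCA and 107 in EFS, before 100.3 in FBS and 113 in SFS. This sum came from names of the 54 kDa signal recognition particle protein, FtsY and ALBINO3-like proteins. From YA on, ALBINO3 itself was listed at 0, and names of the 43 kDa signal recognition particle protein reached no more than 0.57 FPKM. The sum thus does not describe these parts. Unigene8136, an ALBINO3-like protein that inserts proteins into the thylakoid, led the list, with 29.5 FPKM in YA, 25.8 in VCA and 25.4 in EFS, then 24.3 in FBS and 22.7 in SFS. Of 15 counted in each of the last 2 steps, 6 were higher and 4 lower in FBS than in EFS (33.0% and 32.5% of all unigenes), and 3 were higher and 3 lower in SFS than in FBS (29.1% and 35.8%). Names of the thylakoid kinases STN7 and STN8 and of protein phosphatase 2C 57 summed to 41.2 FPKM in YA, 57.3 in VCA and 64.1 in EFS. They summed to 101 in FBS and 117 in SFS. Of 8 counted, 1 was higher and 0 lower in FBS than in EFS, and of 7, 1 was higher and 3 lower in SFS than in FBS, beside the same shares of all unigenes. Their leading unigene, Unigene30743, matched protein phosphatase 2C 57, which in Arabidopsis removes phosphate from LHCII, and had 10.3 FPKM in YA, 16.6 in VCA and 18.7 in EFS, then 21.7 in FBS and 40.4 in SFS.

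Known regulators of LHC genes, a list that holds activators (GLK, HY5) and repressors (PIF) together, summed to 134 FPKM in YA, 136 in VCA and 197 in EFS, before 308 in FBS and 451 in SFS. Each step of this sum was under 2-fold, and its SFS level was 3.32-fold higher than that in VCA. Of 15 counted, 4 were higher and 1 lower in FBS than in EFS, and of 16, 4 were higher and 3 lower in SFS than in FBS, with the higher ones below the 33.0% and 29.1% of all unigenes. Sums by name differed: PIF1 had 187 FPKM in SFS against 31.9 in VCA, HY5 had 153 against 66.4 and HY5-like 88.6 against 7.25. In contrast, GLK2 had 13.4 against 21.4, GLK1 (probable transcription factor GLK1) 3.77 against 3.97 and PIF3 4.52 against 4.67. HY5-like passed 2-fold at every step from YA to SFS, by 2.23-fold to 2.53-fold. CL13500.Contig4, matching HY5, a factor that acts downstream of light receptors, had 40.1 FPKM in YA, 36.3 in VCA and 55.0 in EFS, then 57.02 in FBS and 77.4 in SFS. Actin, used here as a housekeeping list, summed to 1245 FPKM in YA, 1251 in VCA and 1403 in EFS, before 963 in FBS and 639 in SFS, with Unigene20119 (actin-7) at 608, 624, 700.5, 585 and 379 FPKM in the same order.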

How the data were processed

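The authors isolated RNA with TRIzol, sequenced it on the Illumina platform, assembled unigenes with Trinity without a reference genome and calculated FPKM with RSEM, versions and read numbers not given in the sources used here. Deposited FPKM have 2 decimals and carry no counts, so the depth behind a value is unknown; relative depth was estimated from ratios of low values. In the files used here 2 lines were empty. All 6 columns matched 1 library each by their stage.

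Types were taken from KEGG orthology names, then Swiss-Prot names, and related lists from Swiss-Prot names. Ratios were calculated as log2(FPKM + 0.1), which understates changes of low unigenes, where 1 or both libraries reached an FPKM of 1, with 2-fold as the limit. No p-value was calculated, as no stage has a replicate. Named unigenes are CL5355.Contig9, the 10 highest members from YA on, the highest member of each type, the 2 that rose and 2 that fell most in each consecutive pair at an FPKM of at least 50, the 5 highest in FBD and the highest of each related list. Others are marked in the text as named after their values were seen, apart from family-wide sums by protein name. Identifiers are given without the ending _All. Members, lists and settings were chosen with earlier results of these data known. Alternatives were another pseudocount (1 or 0.01), filter (none or 5), scaling, typing and membership, summed contigs of a cluster, and leaving out the highest member. The calculation was tested on simulated data. Python 3.11.15, numpy 2.4.6, pandas 2.3.3 and matplotlib 3.10.9 were used.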

Additional observations from a re-analysis of the deposited data

How the results depend on the processing

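No paired analysis was possible because each stage has 1 library. No step between libraries could be set against a spread between plants, and contigs of a cluster share reads. Scaling by the libraries' median ratios to their geometric mean shifted the ratios by 0.22 for EFS over VCA and 0.18 for SFS over FBS (log2). Scaling to summed actin shifted them by −0.17, 0.54 and 0.59 for EFS over VCA, FBS over EFS and SFS over FBS. For FBS over EFS, the sum of all members was −0.54 with actin scaling, −0.94 with scaling to all names starting with actin (chosen after seeing the data) and −0.91 without CL5355.Contig9, all under 2-fold, and LHCII was −0.61 with actin scaling. For SFS over VCA, actin scaling gave 1.22 for all members, 1.61 for LHCI and 1.18 for LHCII, and the median ratio gave 1.07 for LHCI, all past 2-fold. LHCI in EFS over VCA was 0.15 with the median ratio, against −0.07 as deposited. Without the filter on low values, 2 members were lower in VCA than in YA, 12 higher and 7 lower in EFS than in VCA, 4 higher in FBS than in EFS, and 5 lower in SFS than in FBS. With a filter of 5 FPKM these counts were 0 lower in VCA, 4 higher in EFS, 0 higher in FBS and 1 lower in SFS. For both filter settings, the number counted and the share of all unigenes were not recorded. These counts therefore cannot be set beside a background. The median ratio left 2 of 39 lower in EFS, against 33.6% of all unigenes so scaled. Actin scaling gave 6 of 38 higher in FBS, against 44.8%. With contigs of a cluster summed, FBS had 1 higher and 11 lower than EFS, and SFS had 1 lower than FBS, also without a recorded total. Setting library totals equal, the pseudocounts of 1 and 0.01, membership by KEGG name and typing by Swiss-Prot name moved no sum past 2-fold or back and no count by over 1.5 times, where each was run.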
